A study of Mus musculus with 35 samples.

Results

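The growth factors that pass between dermis and epidermis, and their receptors, were followed here through healing skin of mice that lack type V collagen in fibroblasts. The 10 genes were set by name out of 22830 gene symbols in the deposited tables. The rule uses no value of theirs, although earlier results of these data were known when they were picked. They comprised the ligands Fgf7, Fgf10, Fgf2, Hgf and Igf1 and the receptors Fgfr1, Fgfr2, Met, Pdgfra and Pdgfrb, and all 10 passed the filter on low counts in each comparison made. RNA was sequenced from 35 wounds in 8 groups. Both genotypes carried Col5a1 fl/fl on a C57BL/6 background and both received tamoxifen around the time of wounding. Col5a1CKO animals carried Col1a2CreERT in addition, whereas their Cre-negative littermates are called WT. Males and females of 8 to 12 weeks received a full-thickness excision on the back, and the middle of the wound was harvested.

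One table held 23 wounds. Of these, 14 had no fibroblasts and were taken at day 14 (7 per genotype), 6 were taken at day 19 (3 per genotype), and 3 Col5a1CKO wounds had been injected with cultured WT skin fibroblasts on day 3 and were taken at day 14. A second table held 12 wounds from a separate experiment, which the series design places at day 14: 4 WT and 4 Col5a1CKO wounds from animals given PBS as vehicle, and 4 Col5a1CKO wounds from animals given cilengitide, an inhibitor of αv integrins, by daily intraperitoneal injection. The deletion depends on a collagen I enhancer and so was driven in fibroblasts, not in keratinocytes. Every library was made from a piece of whole wound. One label attaches the fibroblast treatment to the 3 Col5a1CKO wounds at day 19, whereas the sample titles and the series design attach it to wounds at day 14. The titles were followed. The labels call the other wounds of the first table only wounded, whereas the study's methods give PBS to animals that received no fibroblasts and its text calls the day 14 controls vehicle-treated.

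In skin, fibroblasts secrete FGF7 (keratinocyte growth factor) and FGF10, and both act on keratinocytes through the epithelial IIIb splice form of FGFR2. HGF is likewise made by mesenchymal cells and acts on epithelium through MET, a receptor tied to keratinocyte migration. FGFR1, PDGFRα and PDGFRβ are carried mainly by fibroblasts, and PDGFRβ also by pericytes. FGF2 is stored in matrix and acts on fibroblasts and vessels, and IGF1 is made by fibroblasts and macrophages.

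Total counts ranged from 15043531 to 35700325 over the first table's libraries, and from 51211600 to 68266760 over those of the cilengitide experiment. The targeted gene, Col5a1, lay between 345 and 2404 in TMM-normalised counts scaled to library size (CPM) in the 7 WT wounds at day 14 and between 172 and 668 in the 7 Col5a1CKO wounds, so the groups overlapped, and the difference of -1.43 ± 0.49 (log2, SE) did not pass (adjusted p = 0.0757). Counts over the whole transcript include parts outside the floxed segment. Libraries of the first table fell into 2 sets by how high GC-rich genes stood over GC-poor ones (log2), and the gap between the sets was 1.54 where the next widest was 0.39. The lower set held WT wounds a to d and Col5a1CKO wounds a to e at day 14. The upper set held WT wounds e to g, Col5a1CKO wounds f and g, all fibroblast-treated wounds and all wounds at day 19. The genotype difference of Col5a1 passed by DESeq2 (-1.42, adjusted p = 0.0253), within the lower set (-1.87, adjusted p = 0.0273), with library set as a covariate (-1.30, adjusted p = 0.0213) and with all groups in 1 fit (-1.43, adjusted p = 0.0474). In the upper set at day 14, WT wounds e to g were at 345 to 378 CPM and Col5a1CKO wounds f and g at 351 and 229 CPM. Between vehicle-treated genotypes the edgeR difference did not pass (-1.17 ± 0.76, adjusted p = 0.232). Nor did that of fibroblast-treated from Col5a1CKO wounds at day 14 without fibroblasts (-0.52 ± 0.42, adjusted p = 0.571). Within the upper set the 3 WT wounds at day 14 expressed Y-linked genes, while the 2 Col5a1CKO and 3 fibroblast-treated wounds expressed Xist, so that sex and group cannot be told apart there. Epidermis was unevenly sampled: at day 14 the summed level of 8 keratinocyte markers lay between 30594 and 153433 CPM in WT wounds, and between 40.3 and 57362 in Col5a1CKO wounds. No marker of the 7 cell types checked was at 0 in every wound of a group.

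Promoters are shown for the ligands Fgf7 and Hgf and the receptor Fgfr2, which had the 3 smallest adjusted p between genotypes in the vehicle-treated wounds. Of the 10 members, 8 had an entry in the RefSeq table for GRCm38.p6. The 250 bases before the first listed start are printed 5′ to 3′ on the gene's strand, with letters in capitals where 1 of 5 motifs was matched on either strand. The motifs were the TATA box, spelled TATAAA, the CAAT box, spelled CCAAT, the AP-1 site, spelled TGANTCA, the GC box, spelled GGGCGG, and the STAT site, spelled TTCNNNGAA. None overlapped another in the 3 windows.

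Fgf7, chr2:126034408-126034657, plus strand: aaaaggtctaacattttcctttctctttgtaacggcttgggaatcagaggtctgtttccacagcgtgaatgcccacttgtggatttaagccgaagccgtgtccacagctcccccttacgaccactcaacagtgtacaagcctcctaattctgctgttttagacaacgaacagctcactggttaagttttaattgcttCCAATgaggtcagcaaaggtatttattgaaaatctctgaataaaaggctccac
Hgf, chr5:16553245-16553494, plus strand: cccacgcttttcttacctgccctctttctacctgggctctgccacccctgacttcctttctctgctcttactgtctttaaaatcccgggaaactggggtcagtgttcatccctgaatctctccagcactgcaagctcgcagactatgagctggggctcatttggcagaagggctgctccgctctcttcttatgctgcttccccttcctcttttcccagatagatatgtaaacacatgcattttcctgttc
Fgfr2, chr7:130266809-130267058, minus strand: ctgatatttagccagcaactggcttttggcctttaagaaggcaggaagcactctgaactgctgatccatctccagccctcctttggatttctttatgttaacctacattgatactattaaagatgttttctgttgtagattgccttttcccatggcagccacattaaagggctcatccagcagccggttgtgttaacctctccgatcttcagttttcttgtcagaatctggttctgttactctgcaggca

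Fgf7 held 1 CAAT box, with its first base at position -53 from the start, a motif found in 33.8% of 32851 promoters of this length. Hgf and Fgfr2 held none of the 5 motifs in these windows. Among the other members, Igf1 held a CAAT box and an AP-1 site, Met an AP-1 site and 3 GC boxes, and Fgf10 and Fgf2 a GC box each. AP-1 sites occurred in 6.75% of promoters, GC boxes in 32.7%, TATA boxes in 12.4% and STAT sites in 7.02%. A match is only a match of letters.

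In the build of the deposited counts (NCBIM37), Fgf7 spans chr2:125860394-125916921, Hgf chr5:16059368-16125257 and Fgfr2 chr7:137306026-137410322. Counts were taken over exons and do not separate the IIIb and IIIc forms of Fgfr2. Scaled by transcript length (RPKM), the levels in WT wounds at day 14 ran from a median of 71.5 for Igf1 through 14.7 for Fgfr2, 13.1 for Fgfr1, 12.6 for Pdgfra, 7.15 for Pdgfrb and 4.62 for Met to 1.22 for Fgf7, 1.14 for Hgf, 0.295 for Fgf2 and 0.154 for Fgf10. The ranges of neighbours in this order overlapped. In Col5a1CKO wounds at day 14 the median RPKM of Fgf7 was 32.6, next to 35.5 for Pdgfrb, while that of Fgfr2 was 4.59, and the other FGF ligands were at 1.57 for Fgf10 and 0.940 for Fgf2.

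**Figure D1:**
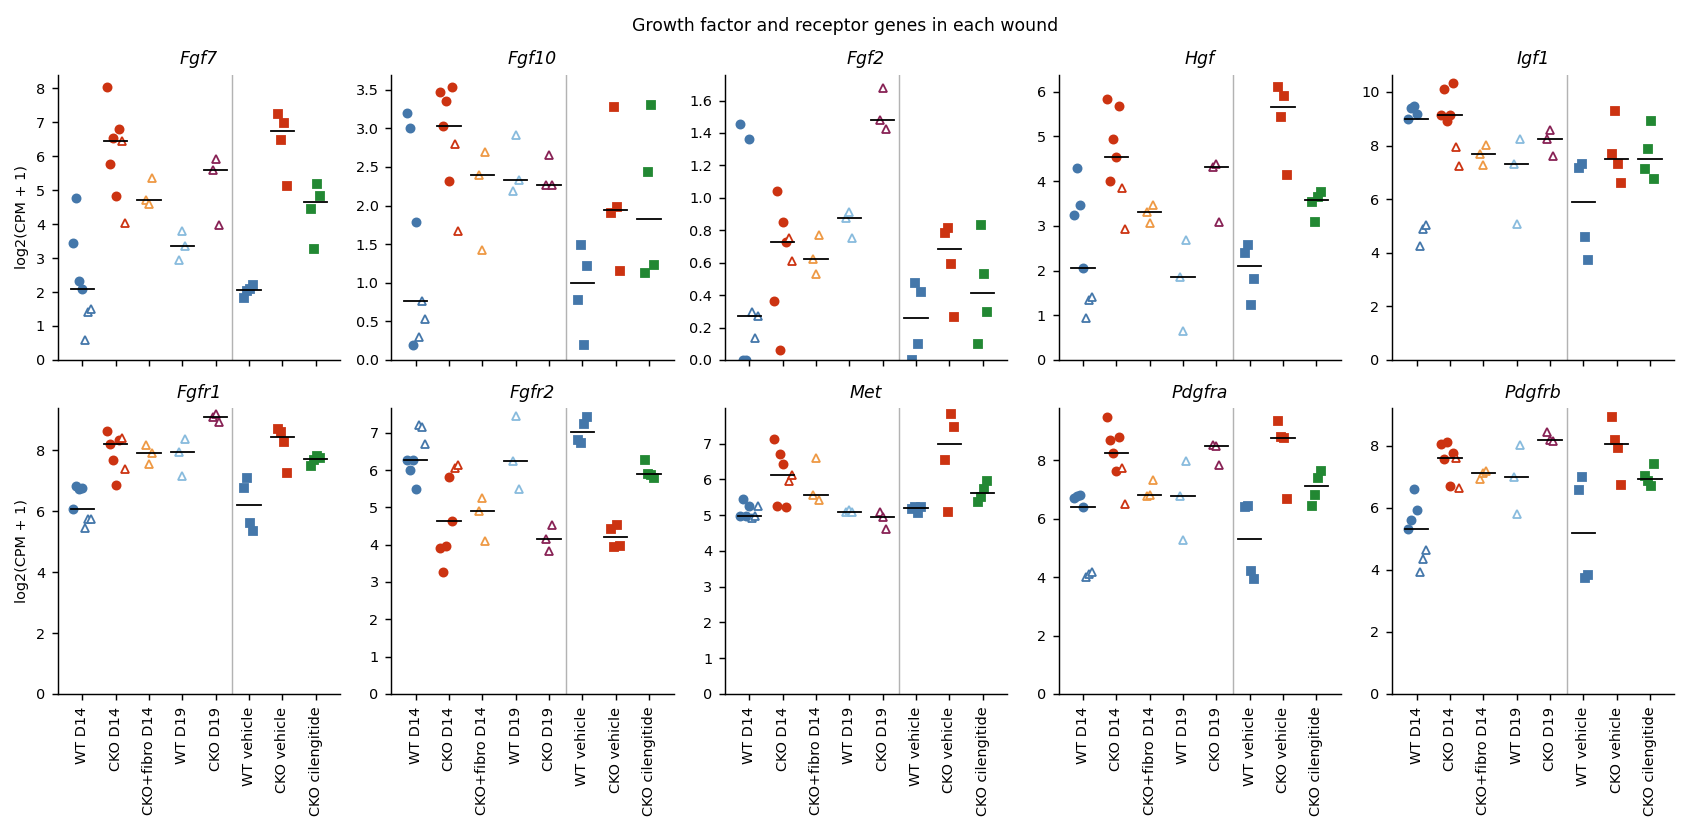
Normalised counts, as log2 of CPM plus 1, of the 10 genes in each of the 35 wounds, by group. Circles are lower-set libraries, open triangles upper-set libraries, squares the cilengitide experiment, and black lines medians. Fgf7 ran from 15.3 to 261 CPM in Col5a1CKO wounds at day 14 and from 0.503 to 26.2 CPM in WT wounds. The tables were normalised separately.

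Col5a1CKO wounds were first compared with WT wounds at day 14, to ask how loss of type V collagen from fibroblasts changed these signals. Fgf7, Fgfr1, Met, Pdgfra and Pdgfrb were called higher, by 2.23-fold to 13.4-fold, and no member was called lower. That is 5 of 10, where 8.28% of the 14367 genes tested were called in either direction and 5.57% were called higher. A gene is called when edgeR's quasi-likelihood test gave an adjusted p under 0.05 with at least a 2-fold difference. The median difference was 1.54 over the members and -0.03 over all genes tested. In whole-wound RNA, more cells of a type and more RNA per cell cannot be told apart.

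Among the ligands, Fgf7 was at 0.503, 3.26 and 26.2 CPM (lowest, median, highest) in WT wounds and at 15.3, 87.0 and 261 in Col5a1CKO wounds. Only WT wound b, at 26.2, reached into the range of the Col5a1CKO wounds, of which wound g was the lowest. The difference was 3.74 ± 0.86 on the log2 scale (SE, 95% interval 1.90 to 5.58, adjusted p = 0.0156). Within the lower set alone it was 3.31 with an adjusted p of 0.0511, and so was not called there. Hgf, the ligand of MET, was at 0.914, 3.14 and 18.6 CPM in WT and at 6.57, 22.2 and 56.1 CPM in Col5a1CKO wounds. The groups overlapped, and the difference of 2.09 ± 0.69 did not pass (adjusted p = 0.0639). Without WT wound b it was 2.66 (adjusted p = 0.0256), without Col5a1CKO wound g 2.26 (adjusted p = 0.0381), and with library set as a covariate 2.16 (adjusted p = 0.00412), each of which passed. With that covariate 7 members were called, 6 higher and Fgfr2 lower, where 12.9% of genes were called.

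The other ligands gave no call. Fgf10, the close relative of Fgf7, was at 0.147 to 8.16 CPM in WT wounds and 2.17 to 10.6 in Col5a1CKO wounds, a difference of 1.32 ± 0.82 (adjusted p = 0.314). Igf1, the member with the highest median RPKM over these WT wounds, was at 18.2 to 710 CPM in WT wounds and 148 to 1276 CPM in Col5a1CKO wounds. Its range in WT wounds followed the library sets: wounds a to d lay between 509 and 710 CPM and wounds e to g between 18.2 and 32.2, under the 102.9 to 146.4 CPM of Fgfr2 in the same 3 wounds. The genotype difference of Igf1 was 0.76 ± 0.79 (adjusted p = 0.564) over all wounds and 3.01 (adjusted p = 0.0369) within the upper set. Fgf2 gave 0 to 27 counts per WT wound, with WT wounds b and c at 0, and 1 to 29 counts per Col5a1CKO wound, with a wide interval around the difference (0.08, 95% interval -2.05 to 2.22). Within the upper set the difference of Fgf2 was 1.86 (95% interval 0.41 to 3.30, adjusted p = 0.0884).

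Among the receptors, Fgfr1 was at 42.7, 65.7 and 112 CPM in WT wounds and at 115, 294 and 400 CPM in Col5a1CKO wounds. Each Col5a1CKO wound lay above each WT wound. The difference was 1.77 ± 0.32 (3.42-fold, adjusted p = 0.0066). Pdgfrb, at 14.3 to 96.7 CPM in WT wounds and 99.2 to 277 CPM in Col5a1CKO wounds, likewise did not overlap and rose by 2.15 ± 0.41 (adjusted p = 0.00774). Such a separation upward was seen for 2.01% of genes. Pdgfra rose by 2.36 ± 0.58 (adjusted p = 0.0206), from 14.9 to 112 CPM in WT wounds to 90.5 to 725 CPM in Col5a1CKO wounds, with overlap from wound g. These 3 receptors were also called within the lower set, and within the upper set 7 members were called higher, against 3.68% and 8.82% of all genes called higher.

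Met, the HGF receptor, held a narrow range in WT wounds, from 29.3 to 42.8 CPM, and was at 36.2, 69.0 and 138 CPM in Col5a1CKO wounds. Wounds b and e of the Col5a1CKO group, at 37.2 and 36.2 CPM, lay within the WT range. The difference of 1.16 ± 0.28 (adjusted p = 0.019) dropped under 2-fold without Col5a1CKO wound a (0.97, adjusted p = 0.0463), and it was not called within the lower set (1.18, adjusted p = 0.0892). Fgfr2, which receives FGF7 and FGF10 in epidermis, ran opposite to its ligand. It was at 44.1, 76.2 and 146 CPM in WT wounds and at 8.69, 23.9 and 69.2 CPM in Col5a1CKO wounds, with wounds d, f and g of the latter within the WT range. The difference of -1.33 ± 0.48 did not pass (adjusted p = 0.0867), whereas it was -1.59 (adjusted p = 0.0406) without Col5a1CKO wound g and -1.28 (adjusted p = 0.018) with library set as a covariate.

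**Figure D2:**
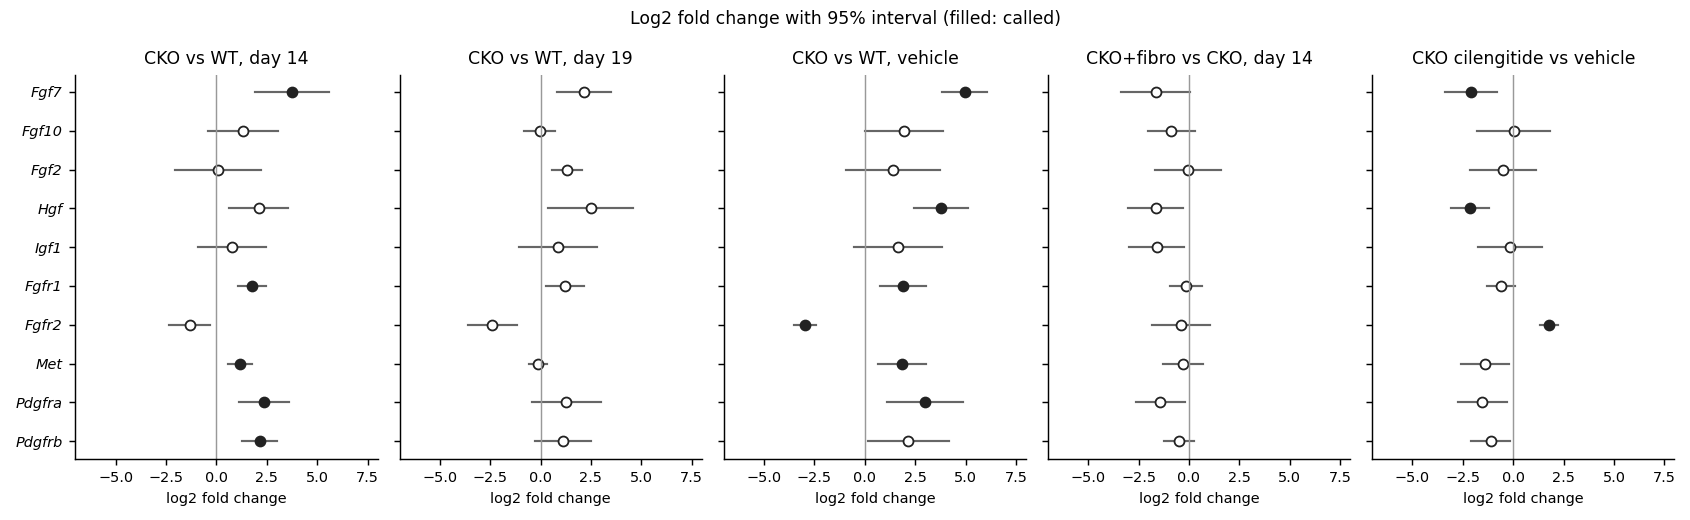
Log2 fold change of each member (edgeR, 95% interval), with filled points for calls. Shown are Col5a1CKO against WT at day 14, at day 19 and with vehicle, fibroblast-treated against Col5a1CKO wounds, and cilengitide against vehicle. At day 14 Fgf7 differed by 3.74 and Fgfr2 by -1.33, and in the vehicle-treated wounds by 4.95 and -2.95.

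Marker levels of other cell types moved beside these values. Among Col5a1CKO wounds at day 14, Fgfr2 was lowest, at 8.69 to 23.9 CPM, in wounds a, b, c and e, whose 8 keratinocyte markers summed to 40.3, 740.8, 1909 and 249.5 CPM, and Fgfr2 was at 55.5 and 69.2 CPM in wounds d and g, whose markers summed to 26840 and 57362 CPM. Wound f departed from this, with 65.4 CPM of Fgfr2 beside 276.7 CPM of keratinocyte markers. Fgf7 stood the other way round: wounds d and g, the richest in keratinocyte markers, held the least Fgf7 of their group, 27.6 and 15.3 CPM. Met was lowest in wounds b and e, at 37.2 and 36.2 CPM, and highest in wound a, at 138 CPM. Leukocyte markers summed to 1833 and 1164 CPM in b and e, the lowest of the group, and to 9878 CPM in a, the highest. Wounds c, d, f and g lay between in both, though not in the same order. The 5 endothelial markers summed to 67.4 to 217.4 CPM in WT wounds and 229.8 to 571.9 CPM in Col5a1CKO wounds, the 7 pericyte and smooth muscle markers to 313.4 to 926 and 718.1 to 1987, the 6 leukocyte markers found to 677.1 to 3936 and 1164 to 9878, and the 7 fibroblast markers to 8598 to 85560 and 32025 to 130364. Singly, 5 of the 6 leukocyte and 4 of the 5 endothelial markers were called higher, as were 3 of the 7 pericyte and smooth muscle markers. Of the 7 fibroblast markers only Thy1 was, where 5.57% of all genes were called higher. None of the 8 keratinocyte markers was called. The part of these cell types in the genotype differences was not tested.

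**Figure D3:**
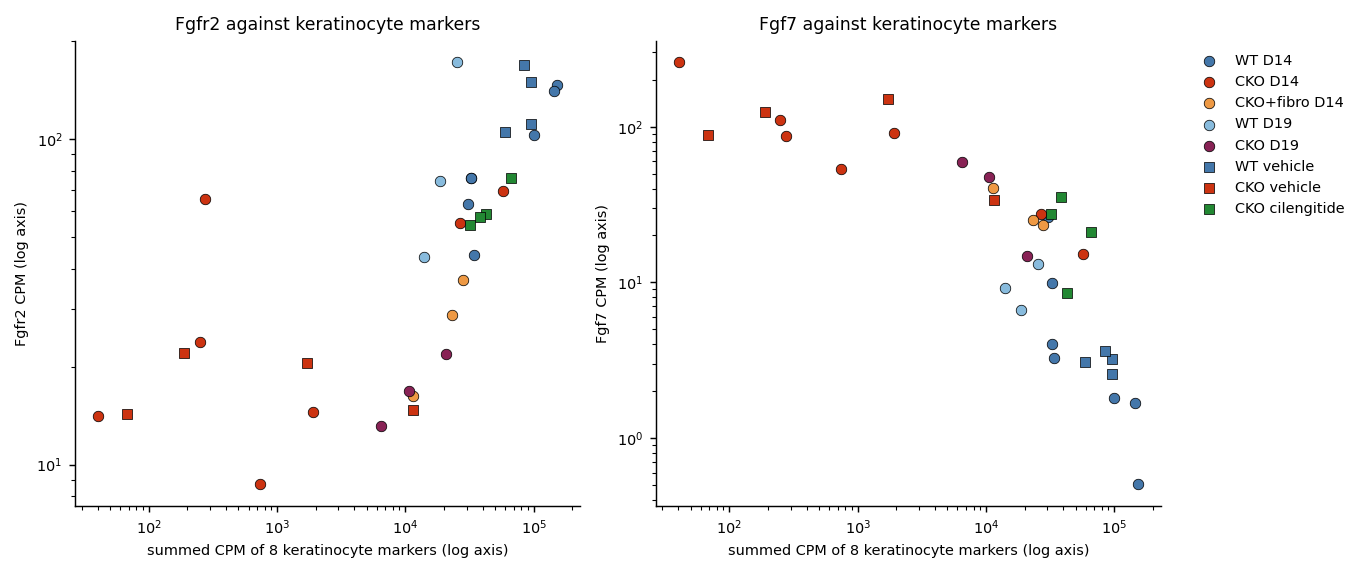
Fgfr2 (left) and Fgf7 (right) CPM of each wound against the summed CPM of 8 keratinocyte markers, all on log axes. Circles are the fibroblast and time-course table and squares the cilengitide table, normalised separately. Col5a1CKO wound f at day 14 lies apart in the left panel, with 65.4 CPM of Fgfr2 at 276.7 CPM of markers.

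Col5a1CKO wounds that had received WT fibroblasts were compared next, first with Col5a1CKO wounds at day 14, to ask whether the transferred cells changed the signals. No member was called, and none of the 15659 genes tested was called either (0%). At an unadjusted p under 0.05 there were 3 members, Hgf, Igf1 and Pdgfra, and 2001 genes, while DESeq2 called 0 members and 0.121% of genes. Each of the 10 differences was below 0, with a median of -0.70 against -0.04 over all genes. Marker medians were -1.10 for fibroblasts, -1.03 for adipocytes and -0.19 for pericytes and smooth muscle. They were 0.55 for keratinocytes, 0.18 for endothelium, 0.16 for leukocytes and 0.07 for skeletal muscle. The part of these cell types was not tested.

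Fgf7 was at 25.0, 23.3 and 40.3 CPM in the 3 fibroblast-treated wounds. All 3 lay within the range of Col5a1CKO wounds without fibroblasts, toward its lower end, and the difference was -1.64 ± 0.77 (adjusted p = 0.399). Hgf was at 8.91, 7.33 and 10.01 CPM, below each Col5a1CKO wound without fibroblasts except g (-1.66 ± 0.62, adjusted p = 0.365). Igf1 was at 207, 152 and 256 CPM (-1.61 ± 0.62, adjusted p = 0.365) and Pdgfra at 109, 113 and 160 CPM (-1.42 ± 0.55, adjusted p = 0.365). For both genes, wound g of the group without fibroblasts was lower than all 3 treated wounds. Fgfr1, at 290, 185 and 240 CPM, differed by -0.14 (95% interval -0.95 to 0.66), and Fgfr2, at 28.9, 36.9 and 16.2 CPM, by -0.39 (-1.85 to 1.06).

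The fibroblast-treated libraries all belonged to the upper set, which held only wounds f and g of the Col5a1CKO group without fibroblasts. Against these, the median difference of the members was -0.05, and the differences lay between -1.25 (Fgfr2) and 0.11 (Igf1). Fgf7 differed there by -0.74 (95% interval -2.74 to 1.26), Hgf by -0.13 (-1.11 to 0.85) and Pdgfra by -0.19 (-1.29 to 0.90), each with an adjusted p of 1, and no gene was called there (0%). Treatment and library set cannot be told apart for wounds a to e.

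Against WT wounds at day 14, the fibroblast-treated wounds had higher Fgfr1 and lower Fgfr2, which makes 2 of 10 members called where 5.84% of genes were. Fgfr1 differed by 1.77 ± 0.34 (adjusted p = 0.0119) and Fgfr2 by -1.62 ± 0.42 (adjusted p = 0.0454), and neither overlapped the WT range. Of all genes, 9.54% lay wholly above and 8.36% wholly below WT. With fibroblast-treated wound a or c left out, the adjusted p of Fgfr1 was 0.0756 and 0.0702. The adjusted p of Fgfr2 was 0.157, 0.0974 and 0.238 without treated wounds a, b and c, and 0.0556 to 0.0635 without WT wound a, c, e, f or g, and 0.0581 with all groups in 1 fit. Pdgfrb, at 121, 139 and 143 CPM, lay above each WT wound without passing (1.78 ± 0.50, adjusted p = 0.0584), and passed without WT wound c (2.12, adjusted p = 0.0171). Fgf7 differed by 2.24 ± 0.92 (adjusted p = 0.177), and by 3.20 (adjusted p = 0.0292) without WT wound b.

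Within the upper set, where the treated wounds stood against WT wounds e to g, all 10 members were called, 9 higher and Fgfr2 lower, while 31.0% of all genes were called. Fgf7 differed by 4.61 (adjusted p = 0.000739), Pdgfra by 3.13 (adjusted p = 0.000207), Igf1 by 3.11 (adjusted p = 0.000463) and Fgfr2 by -2.10 (adjusted p = 0.00179). For Igf1 the sign was opposite to that over all wounds (-0.69). Keratinocyte markers summed to 11444 to 28051 CPM in the treated wounds, below each WT wound at day 14, and the 6 leukocyte markers to 3921 to 4672 CPM, next to 677.1 to 3936 CPM in WT wounds. Singly, 5 of these 6 were called higher over all wounds, each wholly above WT, where 3.77% of genes were called higher. Fibroblast markers summed to 37052 to 47727 CPM in the treated wounds. In WT wounds they summed to 8598 to 9745 CPM in e to g and 51524 to 85560 CPM in a to d. The part of any of these cell types in these differences was not tested.

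**Figure D4:**
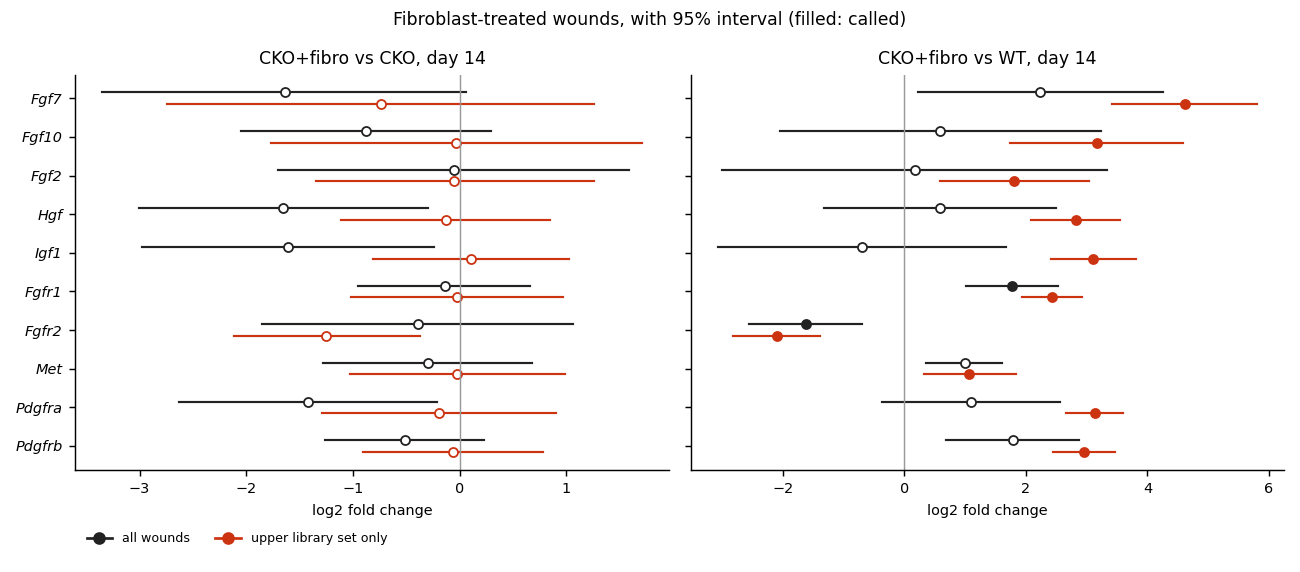
Log2 fold change with 95% interval of each member in fibroblast-treated Col5a1CKO wounds, against Col5a1CKO wounds without fibroblasts (left) and WT wounds (right) at day 14, over all wounds (black) and within the upper library set (red). Filled points are calls. Within the upper set the left panel has a member median of -0.05 and the right panel 2.89.

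At day 19 the genotypes were compared with 3 wounds each. No member was called, where 3 of 15135 genes were (0.0198%). At an unadjusted p under 0.05 there were 5 members and 3652 genes, and DESeq2 called 5 members (Fgf7, Fgf2, Hgf and Fgfr1 higher and Fgfr2 lower) and 9.23% of genes. Fgf7 was at 6.69, 13.03 and 9.27 CPM in WT wounds and 47.4, 59.1 and 14.8 CPM in Col5a1CKO wounds, with no overlap (2.15 ± 0.55, adjusted p = 0.132). Fgfr2 was at 74.3, 173 and 43.6 CPM in WT and 16.8, 13.1 and 21.9 CPM in Col5a1CKO wounds, again with no overlap (-2.39 ± 0.51, adjusted p = 0.115). Without WT wound c, Fgfr2 passed (-2.75, adjusted p = 0.0391). Hgf differed by 2.48 ± 0.85 (adjusted p = 0.17), Fgf2 by 1.31 ± 0.31 (adjusted p = 0.124) and Fgfr1 by 1.21 ± 0.38 (adjusted p = 0.155). In all, 5 members lay wholly above and Fgfr2 wholly below, at a time when 14.0% and 16.5% of genes did so. Endothelial markers summed to 295.1 to 630.1 CPM in WT wounds and 715.1 to 1129 CPM in Col5a1CKO wounds, and pericyte and smooth muscle markers to 607.9 to 746.7 and 1705 to 3020 CPM, both without overlap. Keratinocyte markers summed to 14075 to 25326 and 6508 to 20760 CPM, fibroblast markers to 12303 to 116927 and 111701 to 151962 CPM, and leukocyte markers to 389.9 to 1845 and 449.5 to 1984 CPM. Their part was not tested. Met was at 32.8, 34.2 and 32.9 CPM in WT and 33.2, 30.0 and 23.3 CPM in Col5a1CKO wounds (-0.14, 95% interval -0.57 to 0.30).

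The genotype difference itself was compared between days by an interaction term. No member passed (adjusted p 0.707 to 1), and no gene of 15954 did (0%), with 938 genes at an unadjusted p under 0.05. Met had the smallest p of the members, with a change in its genotype difference of -1.32 ± 0.46 from day 14 to day 19 (edgeR, adjusted p = 0.707). Within the upper set all 10 interaction values were below 0, from -3.26 (Fgf10) to -0.49 (Hgf), with a median of -1.72 against -0.12 over all genes, and none passed. For Hgf, Igf1 and Fgf2 the sign was opposite to that over all wounds (0.37, 0.10 and 1.19). From day 14 to day 19, Fgfr1 rose in WT wounds by 1.68 ± 0.40 (adjusted p = 0.0338), 1 of 10 members where 5.74% of genes were called. The call did not hold without WT day 14 wound a (adjusted p = 0.0646) or WT day 19 wound a or c (0.105 and 0.173). In Col5a1CKO wounds no member was called between days, where 5.72% of genes were. Met, at 23.3 to 33.2 CPM on day 19, lay below each Col5a1CKO wound of day 14 (-1.40 ± 0.43, adjusted p = 0.069), and Fgfr1, at 483 to 580 CPM, lay above each (1.02 ± 0.34, adjusted p = 0.089), as did Fgf2 and Pdgfrb. These 3 and 1 of 10 members stood beside 6.53% and 8.10% of genes wholly above and below. All day 19 libraries were in the upper set, and against WT day 14 wounds e to g alone 7 members were called higher where 14.2% of genes were.

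The vehicle arms of the cilengitide experiment gave a second, separate comparison of genotypes, with no wound in common with the first. In Col5a1CKO wounds Fgf7, Hgf, Fgfr1, Met and Pdgfra rose and Fgfr2 fell, 6 of 10 members, where 30.9% of genes were called. The median difference was 1.91 over the members and 0.02 over all genes. Fgf7 was at 2.56, 3.07, 3.22 and 3.63 CPM in WT wounds and 151, 88.8, 125 and 33.6 CPM in Col5a1CKO wounds. The groups lay far apart, and the difference was 4.95 ± 0.48 (31-fold, adjusted p = 0.000609). Hgf was at 4.28, 4.96, 1.33 and 2.52 CPM in WT and 68.1, 42.2, 58.6 and 16.5 CPM in Col5a1CKO wounds, a difference of 3.78 ± 0.58 (13.8-fold, adjusted p = 0.00199).

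Fgfr2 was at 112, 105, 151 and 169 CPM in WT wounds and at 20.6, 14.3, 22.0 and 14.7 CPM in Col5a1CKO wounds. It fell 7.72-fold (log2 difference -2.95 ± 0.24, adjusted p = 0.000373) and was the only member with each Col5a1CKO wound below each WT wound. Fgfr1, at 40.0 to 135 CPM in WT wounds and 152 to 415 CPM in Col5a1CKO wounds, rose by 1.89 ± 0.49 (adjusted p = 0.0156), and Pdgfra, at 14.5 to 85.7 and 101 to 659 CPM, by 2.99 ± 0.81 (adjusted p = 0.0178). With Fgf7 and Hgf these made 4 members wholly above WT, where 20.2% of genes were, and 20.7% were wholly below. Met was at 35.2, 36.8, 32.1 and 36.8 CPM in WT and at 91.9, 33.3, 226 and 175 CPM in Col5a1CKO wounds. Wound 2 of the latter lay within the WT range, and the difference of 1.85 ± 0.51 (adjusted p = 0.0195) was not called without WT wound 3 (1.80, adjusted p = 0.0541).

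The remaining members did not pass. Pdgfrb ran from 12.4 to 126 CPM in WT and from 104 to 488 CPM in Col5a1CKO wounds (2.15 ± 0.87, adjusted p = 0.0719), and passed without WT wound 2 (2.79, adjusted p = 0.049). Fgf10 differed by 1.93 ± 0.84 (adjusted p = 0.0885), Igf1 by 1.66 ± 0.94 (adjusted p = 0.176) and Fgf2 by 1.40 ± 1.01 (adjusted p = 0.277). The sign of the genotype difference was the same in this experiment as at day 14 in the first for 10 of 10 members, and for 80.1% of the 14311 genes tested in both. Keratinocyte markers summed to 59603 to 96181 CPM in WT wounds and 68.07 to 11484 CPM in Col5a1CKO vehicle wounds, and leukocyte markers to 172.5 to 1303 and 1855 to 20195 CPM. Endothelial markers summed to 52.41 to 371.7 and 375.1 to 905.6 CPM, and pericyte and smooth muscle markers to 257.5 to 673.8 and 942.9 to 2343 CPM. Both sums also stood wholly above WT, while that of fibroblast markers overlapped (10033 to 55733 and 24331 to 116143 CPM). Singly, of 7 pericyte and smooth muscle markers Acta2 and Mcam were called higher and Notch3 lower (-1.96 ± 0.43, adjusted p = 0.00761). Of 7 fibroblast markers Dcn (2.62 ± 0.55, adjusted p = 0.00646) and Thy1 (1.87 ± 0.32, adjusted p = 0.003) were called higher, each wholly above WT. Among all genes 17.5% were called higher and 13.4% lower. By wound, leukocyte markers summed to 3123, 1855, 12141 and 20195 CPM in Col5a1CKO vehicle wounds 1 to 4, beside Met at 91.9, 33.3, 226 and 175 CPM. The part of these cell types in the rises of Fgfr1, Pdgfra, Met and the other members was not tested.

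Cilengitide was given to ask whether blocking αv integrins changes the Col5a1CKO wound. Compared with vehicle, Fgfr2 rose and Fgf7 and Hgf fell, 3 of 10 members, where 13.1% of genes were called. Fgfr2 was at 76.2, 58.9, 57.6 and 54.6 CPM under cilengitide, above each vehicle wound (20.6, 14.3, 22.0 and 14.7 CPM), a difference of 1.80 ± 0.19 (adjusted p = 0.00281). Hgf was at 10.6, 7.44, 11.4 and 12.4 CPM under cilengitide, below each vehicle wound (-2.13 ± 0.41, adjusted p = 0.0122). These were the members without overlap, where 15.2% of genes lay wholly above and 11.1% wholly below.

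Fgf7 was at 21.0, 8.57, 35.5 and 27.7 CPM under cilengitide and overlapped the vehicle group through vehicle wound 4, at 33.6 CPM. The difference of -2.09 ± 0.55 (adjusted p = 0.0303) was not called when vehicle wound 1 or 3 or any 1 of the 4 cilengitide wounds was left out (-1.78 to -2.34, adjusted p 0.0525 to 0.087). Pdgfra was at 86.8 to 197 CPM (-1.53 ± 0.53, adjusted p = 0.0678), Met at 40.6 to 61.3 CPM (-1.40 ± 0.52, adjusted p = 0.0828) and Pdgfrb at 103 to 169 CPM (-1.11 ± 0.42, adjusted p = 0.0867). Without vehicle wound 4, Pdgfra (-1.85, adjusted p = 0.00626) and Pdgfrb (-1.39, adjusted p = 0.0116) were called, and without vehicle wound 2 Met was (-1.72, adjusted p = 0.012). The difference was 0.02 for Fgf10 (95% interval -1.81 to 1.85) and -0.16 for Igf1 (-1.73 to 1.42).

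Beside WT vehicle wounds, cilengitide-treated Col5a1CKO wounds still differed. Fgf7 was higher by 2.89 ± 0.41 (adjusted p = 0.0193), Hgf by 1.68 ± 0.39 (adjusted p = 0.0272) and Fgfr1 by 1.31 ± 0.38 (adjusted p = 0.0455), and Fgfr2 was lower (-1.12 ± 0.19, adjusted p = 0.0193). This was 4 of 10 members where 8.58% of genes were called, and all 4 were free of overlap. With Met and Pdgfra, 5 members lay wholly above WT and Fgfr2 wholly below, where 12.4% and 12.9% of genes did. Each of the 4 calls was lost without at least 1 wound, and leaving out cilengitide wound 3 or 4 left 0 calls (adjusted p 0.0556 for Fgf7 and Fgfr2, 0.0693 for Hgf and 0.101 for Fgfr1 without wound 3). With all groups in 1 fit the adjusted p was 0.0569 for Hgf and 0.0726 for Fgfr1. Met passed the test at 0.49 ± 0.13 (adjusted p = 0.0339), under 2-fold. Both comparisons of the cilengitide wounds use the same 4 libraries. Keratinocyte markers summed to 32181 to 66384 CPM under cilengitide, above each Col5a1CKO vehicle wound, leukocyte markers to 1923 to 3799 CPM, endothelial markers to 263.7 to 492.1 CPM and pericyte and smooth muscle markers to 592.2 to 1265 CPM. Their part in the receptor and ligand differences was not tested.

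Within-wound ratios, which also depend on the shares of cells expressing each gene, were compared to set receptor against receptor and ligand against ligand. In all, 36 such comparisons were made by two-sided exact permutation tests over wounds, on log2 of CPM plus 0.5, with Benjamini-Hochberg adjustment. At day 14 the Fgfr2 to Fgfr1 ratio was 0.25 ± 1.17 (SD, n = 7) in WT wounds and -3.14 ± 1.60 (n = 7) in Col5a1CKO wounds, a difference of -3.39 (exact p = 0.00175, adjusted p = 0.0315). The Fgf7 to Fgf10 ratio was 1.12 ± 0.93 and 3.28 ± 0.73, a difference of 2.16 (exact p = 0.00175, adjusted p = 0.0315). These were the 2 of 36 that passed. With a pseudocount of 0.1 neither did (-3.42 and 1.88, exact permutation test, adjusted p = 0.0629 and 0.1). Within the lower set the Fgfr2 to Fgfr1 ratio ran from -1.29 to 0.21 in WT wounds and from -5.00 to -1.04 in Col5a1CKO wounds, which overlap, and within the upper set from 0.97 to 1.77 and from -2.36 to -1.28, which do not. The Fgf7 to Fgf10 ratio ran from 0.26 to 2.81 and from 2.65 to 4.62 in the lower set, and from 0.46 to 1.28 and from 2.56 to 3.76 in the upper. The Fgfr2 to Fgfr1 comparison failed the adjustment without any 1 of WT wounds a, b, c, e, f and g or Col5a1CKO wound a (-3.12 to -3.57, exact permutation test, adjusted p 0.0524 to 0.0734). The Fgf7 to Fgf10 comparison failed without any 1 of WT wounds a, b, e, f and g or Col5a1CKO wound a (1.94 to 2.28, exact permutation test, adjusted p 0.0524 to 0.0629).

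No other ratio passed. In the fibroblast-treated wounds the Fgfr2 to Fgfr1 ratio was -3.16 ± 0.78 (n = 3), a difference of -0.02 from Col5a1CKO wounds without fibroblasts (exact p = 0.975) and of -3.41 from WT wounds, with no overlap (exact p = 0.00833, the smallest the design allows, adjusted p = 0.1). In the vehicle arms it was 0.85 ± 1.19 (n = 4) in WT and -4.03 ± 0.61 (n = 4) in Col5a1CKO wounds, and under cilengitide it was -1.73 ± 0.34 (n = 4). Neighbouring groups in that order did not overlap, and each comparison gave the smallest exact p that 4 against 4 wounds allow, 0.0286 (adjusted p = 0.129). At day 19, 3 against 3 wounds could not go below an exact p of 0.1. No comparison of Hgf to Met or of Pdgfra to Pdgfrb passed, with the Pdgfra to Pdgfrb ratio at 0.38 ± 0.70 in WT and 0.67 ± 0.61 in Col5a1CKO wounds at day 14 (n = 7 each, exact p = 0.407).

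**Figure D5:**
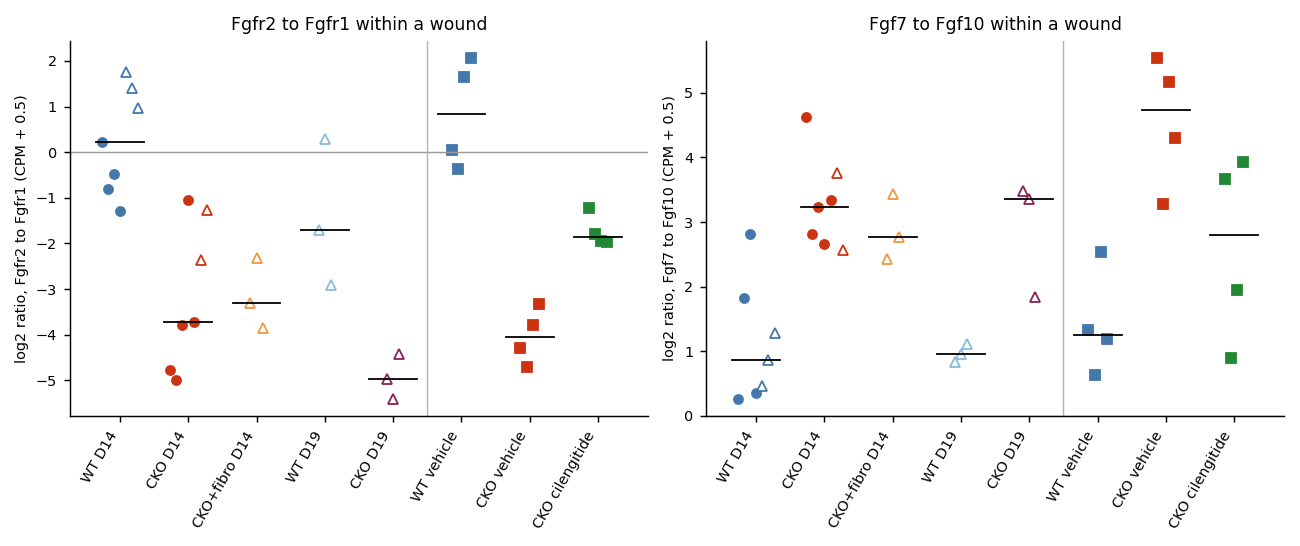
Log2 ratio of Fgfr2 to Fgfr1 (left) and of Fgf7 to Fgf10 (right) in each wound, from CPM plus 0.5. Circles are lower-set, open triangles upper-set and squares cilengitide-experiment libraries, and lines are medians. The mean Fgfr2 to Fgfr1 ratio was -4.03 in Col5a1CKO vehicle wounds and -1.73 under cilengitide.

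Genes that respond to receptor signalling were then read from a list of 16 transcripts induced by FGF receptors through ERK, such as the Sprouty and Spred inhibitors, the DUSP phosphatases and the Etv and Fos factors. At day 14, 2 of the 16 rose in Col5a1CKO wounds, the ERK phosphatase Dusp6 (1.41 ± 0.30, adjusted p = 0.0109) and the feedback inhibitor Spry4 (1.74 ± 0.50, adjusted p = 0.039), with a list median of 0.91 against -0.03 over all genes. Over all genes 5.57% were called higher in that comparison. Neither was called within the upper set alone (adjusted p = 0.0718 and 0.0624), nor Spry4 within the lower set alone (adjusted p = 0.184), and the call of Spry4 was lost without any 1 of 9 of the 14 wounds (WT d, e, f or g, and Col5a1CKO a, b, c, e or f, adjusted p 0.0516 to 0.0938). In fibroblast-treated wounds none was called against Col5a1CKO wounds without fibroblasts, and Fos (1.94 ± 0.42, adjusted p = 0.0185) and Dusp6 (1.70 ± 0.37, adjusted p = 0.0191) were higher than in WT, where 3.77% of genes were. Fos was not called with any 1 treated wound left out, nor Dusp6 without treated wound b or c.

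In the vehicle arms 10 of the 16 rose in Col5a1CKO wounds, led by Spred3 (2.20 ± 0.31, adjusted p = 0.00157), Etv1 (2.83 ± 0.41, adjusted p = 0.00163) and Fos (3.43 ± 0.53, adjusted p = 0.00206), with a list median of 1.93 against 0.02, in a comparison where 17.5% of genes were called higher. Fos was at 14.6 to 30.3 CPM in WT wounds and 111 to 436 CPM in Col5a1CKO wounds. Under cilengitide 6 of the 16 fell relative to vehicle, among them Spred3 (-1.13 ± 0.21, adjusted p = 0.011), Etv1 (-1.44 ± 0.34, adjusted p = 0.0208) and Dusp6 (-1.89 ± 0.46, adjusted p = 0.0244), and the median was -1.22 against -0.06, where 6.59% of genes were called lower. Relative to WT, 4 of the 16 were called higher under cilengitide, where 5.15% of genes were: Etv1 (1.42 ± 0.28, adjusted p = 0.0207), Fosl1 (1.30 ± 0.32, adjusted p = 0.0295), Fos (1.47 ± 0.38, adjusted p = 0.0348) and Spred3. The calls of Etv1, Fosl1 and Fos were each lost without at least 1 wound, and those of Fosl1 and Fos also with all groups in 1 fit (adjusted p = 0.16 and 0.0855). Dusp6 was at 73.6 to 269 CPM with vehicle and 31.2 to 57.3 CPM with cilengitide, so the arms did not overlap. The call of Dusp6 was lost without vehicle wound 3 or cilengitide wound 1, 2 or 3 (adjusted p 0.0551 to 0.0693), and that of Etv1 without cilengitide wound 1, 2 or 3 (adjusted p 0.0619 to 0.067). ERK also answers to other receptors, and which one acts in these wounds was not tested. At day 19 none of the 16 was called between genotypes, and Spry4 rose from day 14 to day 19 in Col5a1CKO wounds (1.49 ± 0.40, adjusted p = 0.0465), where 1.87% of genes were called higher, a call lost without any 1 of Col5a1CKO day 14 wounds b to e or any day 19 wound (adjusted p 0.0576 to 0.18).

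Other FGF receptors, ligands and adaptors were read from further lists. Of 12 further FGF receptors, coreceptors and binding proteins, 10 were tested, and in Col5a1CKO vehicle wounds 3 fell and Fgfrl1, a receptor without a kinase, rose (1.55 ± 0.42, adjusted p = 0.0178), where 13.4% and 17.5% of genes did. The call of Fgfrl1 was lost without WT wound 4 (1.40, adjusted p = 0.0544). Fgfr3, a receptor of keratinocytes, was at 92.1 to 151 CPM in WT wounds and 1.58 to 12.99 CPM in Col5a1CKO wounds (-4.53 ± 0.69, adjusted p = 0.00197) and at 49.2 to 73.7 CPM with cilengitide, a rise of 3.50 ± 0.66 over vehicle (adjusted p = 0.0114). Of 19 further FGF ligands, 8 passed the filter there and 2 fell, Fgf13 (-1.61 ± 0.36, adjusted p = 0.00841) and Fgf22, an epidermal ligand at 7.85 to 15.9 CPM in WT wounds and 0 to 0.178 CPM in Col5a1CKO wounds. With cilengitide Fgf22 was at 2.09 to 5.63 CPM, above each vehicle wound (adjusted p = 0.00598). In the first table, no ligand was called in any comparison and 1 binding protein was: Fgfbp1, which releases FGFs from matrix, was lower in WT wounds at day 19 than at day 14 (-2.42 ± 0.31, adjusted p = 0.00299), where 4.25% of genes were called lower. That call was lost with all groups in 1 fit (-2.44, adjusted p = 0.24). Of 8 FGF adaptors, Grb2 was higher in fibroblast-treated than in WT wounds (1.14 ± 0.25, adjusted p = 0.0204), where 3.77% of genes were called higher. In Col5a1CKO vehicle wounds Frs3 rose (1.15 ± 0.37, adjusted p = 0.0351) and Gab1 fell (-1.06 ± 0.13, adjusted p = 0.00109), where 17.5% and 13.4% of genes did. The Grb2 call was lost without any 1 treated wound, and that of Frs3 without any 1 of WT wounds 1 to 3 or Col5a1CKO wounds 1 to 3.

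A list of 7 genes around HGF and MET held the HGF-activating proteases Hgfac and St14, the inhibitors of such proteases Spint1 and Spint2, the ligand Mst1 and its receptor Mst1r, and Lrig1, a membrane protein that dampens receptor signalling. In the vehicle arms all but Hgfac were tested, and all 6 fell in Col5a1CKO wounds, where 13.4% of genes were called lower, while Hgf and Met rose. Spint2 fell from 167 to 239 CPM in WT wounds to 7.69 to 44.8 CPM (-3.40 ± 0.59, adjusted p = 0.00318), its relative Spint1 fell as well (-2.17, adjusted p = 0.00193) and so did Mst1r, the receptor most like MET (-1.77, adjusted p = 0.00364). With cilengitide these 3 rose over vehicle, by 2.62 ± 0.58, 1.56 ± 0.31 and 1.55 ± 0.32 (adjusted p = 0.0184, 0.0134 and 0.0146), where 6.48% of genes rose. Keratinocyte markers moved the same way, with a median log2 difference of -4.55 between the vehicle arms (6 of 8 called lower). Under cilengitide against vehicle their median was 3.77 (5 of 8 called higher). The part of epidermis in the differences of these genes was not tested. None of the 7 genes around HGF and MET was called in the first table. Of 17 genes of the IGF axis, 16 were tested. At day 14, 4 rose in Col5a1CKO wounds, where 5.57% of genes were called higher. They were Igf2r, the clearance receptor for IGF2, at 1.17 ± 0.24 (adjusted p = 0.0101), Igfbp7 at 1.46 ± 0.33 (adjusted p = 0.0134), Pappa, a protease of IGF binding proteins, at 2.97 ± 0.76 (adjusted p = 0.0245), and Igf1r at 1.22 ± 0.34 (adjusted p = 0.0324). Igf2r and Igfbp7 were not called within the upper set (adjusted p = 0.0584 and 0.056), nor Igfbp7, at 0.96, within the lower. Pappa was not called without Col5a1CKO wound a (2.70, adjusted p = 0.0576) or within the lower set (2.95, adjusted p = 0.112). In the vehicle arms 6 rose (17.5% of genes did), among them Igf1r (1.73 ± 0.49, adjusted p = 0.0213). Igfals, the acid-labile subunit, fell there (-3.62 ± 0.50, adjusted p = 0.00139), where 13.4% of genes did, although it reached only 1.01 to 1.40 CPM in WT wounds. Of 5 PDGF ligands, Pdgfd rose in Col5a1CKO vehicle wounds (1.76 ± 0.49, adjusted p = 0.0199), where 17.5% of genes did. That call was lost without WT wound 3 (1.60, adjusted p = 0.0555), and none was called elsewhere.

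The transcripts most like each member across wounds were taken by Pearson's r over the 23 wounds, after library-set means were removed, and over the 12 wounds of the other table, and ranked by the smaller r among 11493 genes. Wounds in each table share their groups, so these values describe the pattern over groups as well as wounds. Fgfr1, Pdgfra and Pdgfrb named each other or shared neighbours: Pdgfra was the third nearest to Fgfr1 (r = 0.967 and 0.977), and Fgfr1 was the third nearest to Pdgfrb (0.961 and 0.963), with Nfatc4 near both Fgfr1 and Pdgfra. Fgf7 was nearest to Hp, which encodes haptoglobin (0.908 and 0.967), then Nek6 and Pcsk5, and Hgf was nearest to Cp, which encodes ceruloplasmin (0.913 and 0.964), then Il1rl1 and Sod3. Fgfr2 was nearest to Mycl1 (0.945 and 0.984), Gata3 and Tfap2b. Met was nearest to Malt1 (0.943 and 0.953), Hilpda and Msl2, and Igf1 to Grb10 (0.960 and 0.973), Csrp2 and Zfp521. Fgf10 was nearest to Cyp1b1 (0.842 and 0.851), and the 3 genes ranked nearest to Fgf2, led by Tmod2, had an r of 0.716 to 0.748 in the 23 wounds.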

How the data were processed

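Gene counts from 35 wounds were used. The authors deposited 2 tables of read counts, made by aligning reads with HISAT2 to mm9 and counting over exons of RefSeq genes in SeqMonk. The methods do not say whether this text covers the cilengitide libraries. In the first table, rows without a gene symbol (30 rows, 0.0492% of counts) were dropped and the row with the largest total was kept per symbol. The second table had 1 such row (5.91e-05% of counts). All columns matched a sample. Libraries were normalised by TMM over each table, and CPM and RPKM were computed from these counts, not taken from the authors.

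Each comparison was fitted with edgeR 4.0.16 (R 4.3.3) by its quasi-likelihood test, on the groups compared, after filterByExpr (minimum count 10), with Benjamini-Hochberg adjustment over all genes tested. Calls needed an adjusted p under 0.05 and a 2-fold difference, and ± after a log2 difference is the SE. Methods of the study use DESeq2, run here as version 1.42.0 beside other normalisation, filters, row choices, single wounds left out and library sets. Ratios were tested with scipy 1.17.1. Some of the fits were also run on simulated counts, which held no library sets or uneven epidermis and so do not test for their effect. All 10 members and Col5a1 were tested in every comparison, but the text does not print each of their values. Named besides were up to 3 called genes of each pathway list per direction and up to 3 nearest genes per member. Igf1r was named in addition. The members and lists were chosen with earlier results of these data known. Wounds are separate biological replicates per the study. Dixon's test was run for groups of 4 or 7 wounds, not for those of 3, and flagged 0 of 50 groups of values. Same-group libraries differed beyond counting noise (chi-square per degree of freedom of at least 29.9).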

Additional observations from a re-analysis of the deposited data

How the results depend on the processing

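Of the 21 called member values, none changed sign in 363 refits, and 318 refits kept the call while 45, over 11 of the values, lost it. Of 69 values not called, 33 gained a call and 21 changed sign under some setting. The cause was not tested for any value below. DESeq2 called 5 members at day 19 (9.23% of genes). Between days it called 2 in WT wounds (12.98% of genes) and 2 in Col5a1CKO wounds (10.78%). For cilengitide against vehicle it called 6 (18.39%). Library size as the only scaling gave 4 for fibroblast-treated against WT (6.44% of genes) and 2 for WT over time (6.67%). With all groups in 1 fit there were 2 for WT over time (14.1% of genes), 1 for Col5a1CKO over time (2.80%) and 2 for cilengitide against WT (3.03%). The lower set gave 3 between genotypes at day 14 (6.60% of genes), and the upper set 10 for fibroblast-treated against WT (31.0%) and 7 for WT over time (24.3%). A pseudocount of 0.1 left 0 of the 36 ratio comparisons. With 1 wound left out, members called numbered 0 to 1 at day 19, 0 to 3 for fibroblast-treated against WT, 0 to 1 for WT over time, 2 to 5 for cilengitide against vehicle, 0 to 4 for cilengitide against WT, and 0 to 2 for ratios. The shares of all genes called in these refits were 0% to 6.54% at day 19, 1.81% to 6.23% for fibroblast-treated against WT and 0.580% to 6.69% for WT over time. For cilengitide they were 6.71% to 17.5% against vehicle and 0.00635% to 11.4% against WT.

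Wound letters did not pair the samples: deviations of same-letter wounds had a mean correlation of 0.186 at day 14 (-0.461 to 0.572), -0.391 at day 19, and 0.103 and 0.236 for fibroblast-treated against Col5a1CKO and WT wounds. With a replicate block, 2 members were called for fibroblast-treated against Col5a1CKO (Hgf at -1.76, adjusted p = 0.0335 by edgeR, and Pdgfra at -1.84, adjusted p = 0.0381), where 16.8% of 15162 genes were called, and 4 against WT, where 21.7% of 14606 were. Met lost its call at day 14 (1.03, adjusted p = 0.0518), and signs changed for Fgf2 (0.78) and Fgfr2 (1.09) in the former and for Fgf10 (-0.04) and Hgf (-0.45) in the latter.

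Other changes of sign were in log2 differences that did not pass over all wounds. Fgf2 was at -0.56 between genotypes at day 14 in the lower set, and at 0.06 for fibroblast-treated against Col5a1CKO with library size only. In the upper set Igf1 was at 0.11 for fibroblast-treated against Col5a1CKO and 3.11 against WT, WT over time gave 1.23 for Hgf, 2.82 for Igf1 and -0.33 for Fgfr2, and Col5a1CKO over time gave 0.11 for Fgf10, 0.67 for Hgf, 0.60 for Igf1 and 1.10 for Pdgfra. The interaction gave -0.54 for Fgf2, -0.49 for Hgf and -2.14 for Igf1 in the upper set, and -0.02 for Hgf and -0.30 for Igf1 with library size only. Met over time in WT was at -0.03 with all groups in 1 fit. With 1 wound left out, Fgf2 ranged from -0.14 to 0.76 between genotypes at day 14, Fgf10 from -0.22 to 0.21 and Met from -0.25 to 0.01 at day 19, Fgf2 from -0.24 to 0.19 and Fgfr1 from -0.31 to 0.01 for fibroblast-treated against Col5a1CKO, Fgf2 from -0.07 to 0.85 against WT, Fgfr2 from -0.51 to 0.48 and Met from -0.04 to 0.09 for WT over time, Pdgfra from -0.28 to 0.20 for Col5a1CKO over time, and Fgf10 from -0.72 to 0.78 Igf1 from -0.73 to 0.67 for cilengitide against vehicle, and in the interaction Hgf from -0.21 to 1.24 and Igf1 from -0.40 to 0.92. The Fgfr2 to Fgfr1 ratio of fibroblast-treated against Col5a1CKO wounds ranged from -0.44 to 0.33.

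Refits of the interaction, and ratios with 1 wound left out, were chosen after seeing the data. Fgf2 and Fgf10 had too few counts in many wounds for a precise value, groups of 3 wounds limit the day 19 and fibroblast comparisons, and library set cannot be separated from day or from fibroblast treatment outside the upper set.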
